A study of Mus musculus with 7 samples.

Results

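The vomeronasal type 1 receptor (Vmn1r) genes were examined as a receptor family that a kidney cell is expected to keep silent. Members were the protein-coding genes of GENCODE vM21 (mm10) whose symbol starts with Vmn1r and that lie on chromosomes 1 to 19, which gave 208 of 21853 protein-coding genes. The cells were differentiated cultured mouse podocytes, the epithelial cells of the glomerular filter, from an immortalised line, and were kept in normal or high glucose for 36 hours after growth arrest in reduced serum. Normal glucose (NG) was 5 mM and high glucose (HG) was 25 mM, and the high glucose cells were transfected at 50 nM with either a non-targeting mimic (HG+NT) or a mimic of the microRNA miR-93 (HG+miR-93). The labels name no mimic for NG, so glucose and transfection cannot be told apart between NG and HG+NT. Each condition had 2 DNase-Seq libraries, and 1 digested genomic DNA library served as input. The peak lists held 1 pooled set per condition, so no spread between replicates could be had, and values are described without a test between conditions. Where 3 values are given in a row, they stand for NG, HG+NT and HG+miR-93 in that order.

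Vmn1r genes encode G protein-coupled receptors of the vomeronasal organ, the nasal organ that detects pheromones and other chemical signals between animals. Each sensory neuron there is thought to express a single receptor gene, and the rest of the family is kept in closed chromatin. The genes lie in dense tandem arrays formed by duplication, and neighbours in an array can be nearly identical. In DNase-Seq, open chromatin is cut more often by DNaseI, and a pile of sequenced fragments marks the site.

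The members fell into 13 groups when genes at most 1 Mb apart on a chromosome were joined. Chromosome 7 held 103 members, chromosome 6 held 51, chromosome 13 held 36, chromosome 17 held 14 and chromosome 4 held 2. Chromosomes 1 and 18 held 1 each. The largest array ran from Vmn1r91 to Vmn1r183 with 65 members at chr7:20099680-24063554. Vmn1r188 to Vmn1r223 formed an array of 36 members at chr13:22084440-23253906 with no other protein-coding gene inside it. Vmn1r4 to Vmn1r31 formed an array of 28 members at chr6:56924015-58475330. The members lay on both strands, 107 on the plus and 101 on the minus strand.

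Members had AT-rich promoters with few CG dinucleotides, and those of the largest array were near copies of each other. Sequence of 300 bases, from 250 before to 49 after a start site, was read from the RefSeq mm10 assembly (GRCm38.p6). The first 3 are shown because they set a member start site in CG-rich sequence beside start sites with few CG dinucleotides. CG dinucleotides are in capitals. Vmn1r4 has 3 annotated start sites, and the first and the third are given. Vmn1r201 was chosen after its values were seen, as a member whose peak summits lay near its first start site in all 3 lists.
Vmn1r4, start site 1, chr6:56923772-56924071, plus strand: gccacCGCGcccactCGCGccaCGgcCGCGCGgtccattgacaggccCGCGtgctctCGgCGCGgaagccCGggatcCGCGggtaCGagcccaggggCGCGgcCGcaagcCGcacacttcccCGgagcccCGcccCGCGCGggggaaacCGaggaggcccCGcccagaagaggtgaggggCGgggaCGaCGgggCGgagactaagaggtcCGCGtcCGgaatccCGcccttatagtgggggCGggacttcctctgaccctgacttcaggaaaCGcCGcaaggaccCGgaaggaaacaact
Vmn1r4, start site 3, chr6:56956216-56956515, plus strand: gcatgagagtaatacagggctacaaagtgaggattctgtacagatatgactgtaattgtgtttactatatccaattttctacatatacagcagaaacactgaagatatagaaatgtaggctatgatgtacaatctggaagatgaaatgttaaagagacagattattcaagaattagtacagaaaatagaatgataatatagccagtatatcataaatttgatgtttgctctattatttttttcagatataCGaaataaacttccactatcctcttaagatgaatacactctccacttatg
Vmn1r201, first start site, chr13:22471673-22471972, plus strand: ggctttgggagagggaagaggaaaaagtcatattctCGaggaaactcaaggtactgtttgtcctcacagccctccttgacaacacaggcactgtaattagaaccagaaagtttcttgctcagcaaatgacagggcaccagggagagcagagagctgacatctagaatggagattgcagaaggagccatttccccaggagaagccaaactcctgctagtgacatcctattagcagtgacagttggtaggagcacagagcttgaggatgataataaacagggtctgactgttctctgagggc
The first Vmn1r4 window held 40 CG dinucleotides at 72.3% GC. The window at start site 3 held 1 at 30.7% GC, and the Vmn1r201 window held 1 at 48.3% GC. The next pair is shown to make visible how alike promoters of the largest array were. Vmn1r115 is among the members with the lowest signal, and Vmn1r127 is the member most like it. Capitals mark the base that differs.
Vmn1r115, chr7:20844936-20845235, minus strand: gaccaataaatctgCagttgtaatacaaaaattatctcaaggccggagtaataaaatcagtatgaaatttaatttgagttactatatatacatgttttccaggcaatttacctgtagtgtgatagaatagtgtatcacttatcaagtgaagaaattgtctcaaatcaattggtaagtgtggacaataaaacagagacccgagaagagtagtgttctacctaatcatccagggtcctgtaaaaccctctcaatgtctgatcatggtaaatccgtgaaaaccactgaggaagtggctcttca
Vmn1r127, chr7:21319812-21320111, minus strand: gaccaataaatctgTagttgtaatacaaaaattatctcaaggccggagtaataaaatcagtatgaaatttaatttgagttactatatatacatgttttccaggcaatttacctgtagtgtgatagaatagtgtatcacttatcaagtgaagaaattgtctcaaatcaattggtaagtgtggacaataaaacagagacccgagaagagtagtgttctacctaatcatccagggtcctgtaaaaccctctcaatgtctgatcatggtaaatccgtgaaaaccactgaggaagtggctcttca
Compared base by base without gaps, the 300 bases at the first start site were identical to those of another member for 34 of 208 genes, and 32 of these lay in the 65-gene array. At least 90% identity to another member was found for 45 of the 65 genes of that array and for 49 of all 208.

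RefSeq promoters of 300 bases were matched by symbol for 183 members. Their median CG count was 1, with a range of 0 to 6, whereas the median over all 32851 promoters of the table was 7. The Vmn1r4 window at start site 1, with 40 CG, is therefore not among the 183. No CG was found in 24.0% of the members' promoters and in 5.43% of all promoters. The letters TATAA, part of a TATA box, were found on either strand in 124 of 183 members (67.8%) and in 24.9% of all promoters. TAATTA, the core bound by many homeodomain factors, was found in 8.20% of members and 5.29% of all promoters. These matches describe letters and not binding, and AT-rich sequence holds TATAA and TAATTA more often by its composition.

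Over the 500 nt either side of their start sites, all 208 members had a GC content between 31.1% and 44.8% and lay in the lowest of 5 equal classes of protein-coding genes by GC. The median was 37.5%, against 53.5% over all genes. A read of 36 nt can be placed at 1 site only where its sequence occurs once in the genome. The share of such 36-mers in a promoter, its uniqueness, had a median of 78.3% in members and 100% over all genes. At least 90% uniqueness was reached by 63 members (30.3%) and by 83.2% of all genes, and 40 members were under 10%, of which 38 lay in the 65-gene array.

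The signal at each promoter was taken from the peak with the highest fold overlapping 500 nt either side of any annotated start site. From the fold and p-value, the number of fragments at its summit was recovered, and the pileup is that number scaled to the depth of the input. The pooled libraries were 2.24, 3.85 and 5.15 times as deep as the input, so NG values rest on the fewest fragments. The lists had 1036304, 846027 and 900109 peaks and covered 93.7%, 95.4% and 94.8% of the genome. A listed peak is therefore no sign of open chromatin. All 208 members overlapped a peak in every list, and 1 member in NG and 0 in the other lists had a peak with a −log10 q above 0, which was rare over all genes too (1.83%, 2.20% and 0.110%).

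Vmn1r promoters had low pileups, near the median of all listed peaks. Their median pileup was 2.68 in NG, with quartiles of 2.68 and 3.13, against 4.91 over all protein-coding genes. In HG+NT it was 2.34 with quartiles of 1.82 and 2.86, against 4.67. In HG+miR-93 it was 2.33 with quartiles of 1.94 and 2.72, against 4.66. The median over all listed peaks, wherever they lay, was 2.68, 2.60 and 2.33 in the 3 lists. By fold the members lay higher, with medians of 1.52, 1.27 and 1.29 against 1.32, 1.18 and 1.13 over all listed peaks. The measures are unlike, because a member's value comes from its peak of highest fold over all its start sites. A median member rested on 6, 9 and 12 fragments. The pileup was below the median of all genes for 98.1%, 97.1% and 98.1% of members.

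Ranked among the 21835 genes with a promoter peak in all 3 lists, the median member stood at percentiles 9.42, 8.31 and 9.0 by pileup. By the authors' fold over input, the median percentiles were 23.6, 17.1 and 21.3. The input's local mean was at the genome background of 1.43 fragments for 78.8%, 76.0% and 67.8% of members, against 26.9%, 26.5% and 26.1% of all genes. The gap was therefore wider by pileup than by fold, and both are given for this reason.

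The other chemosensory receptor families lay at similar levels. Vmn2r genes, the second vomeronasal receptor family, had median pileups of 2.68, 2.08 and 2.04 over 120 genes. Olfactory receptor genes (Olfr) had 3.13, 2.60 and 2.53 over 1134 genes. The 35 bitter taste receptor genes (Tas2r) had 3.13, 2.60 and 2.33, and the 15 trace amine receptor genes (Taar) 3.13, 2.60 and 2.72. Ribosomal protein genes (Rpl and Rps), which every cell uses, had 8.93, 6.75 and 5.83 over 80 genes.

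**Figure D1:**
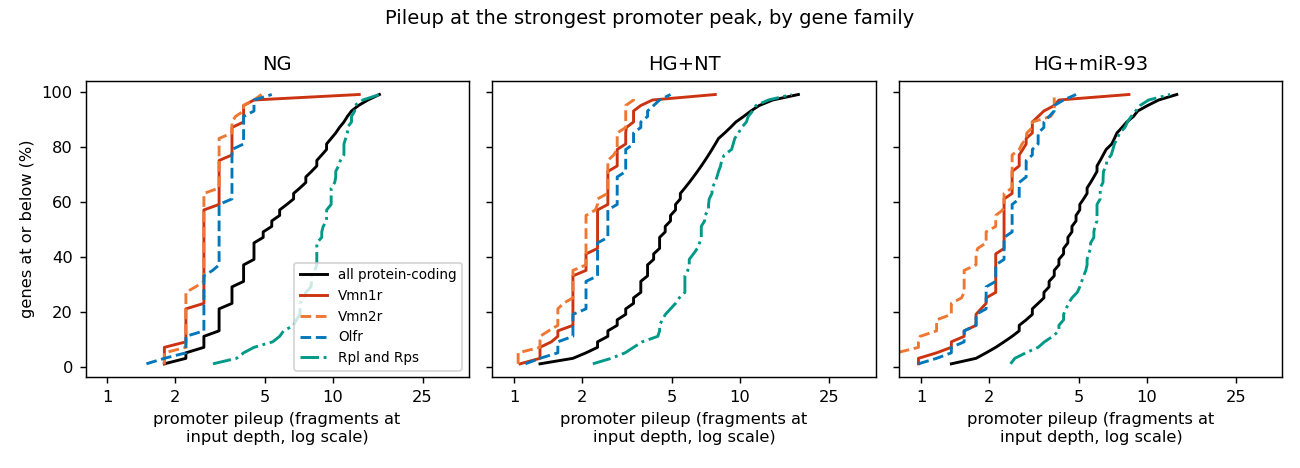
Cumulative share of genes (vertical axis, percent) at or below a promoter pileup (horizontal axis, fragments at input depth, log scale) in each list, for Vmn1r, Vmn2r, Olfr, Rpl and Rps genes and all protein-coding genes. The Vmn1r curve rises near 2.68, 2.34 and 2.33 and lies left of the curve of all genes, whose medians are 4.91, 4.67 and 4.66, and its upper end reaches out to the few members of high pileup.

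Most clusters shared this level and 4 members stood apart. Medians of the 9 clusters with more than 2 members or the pair Vmn1r184 and Vmn1r185 ranged from 2.68 to 3.57 for NG, from 1.82 to 2.60 for HG+NT and from 1.94 to 2.72 for HG+miR-93. Vmn1r90, alone on its stretch of chromosome 7, had 1.79, 1.82 and 1.55. The 36 members on chromosome 13 had medians of 3.13, 2.60 and 2.53, and the 14 on chromosome 17 had 2.90, 1.95 and 2.14. Around the chromosome 13 array, 94 other coding genes within 1 Mb had medians of 5.58, 4.41 and 3.69. The 87 neighbours of the 65-gene array on chromosome 7 had medians of 4.47, 4.67 and 4.66, while the array itself had 2.68, 1.82 and 2.14. The 24 members from Vmn1r66 to Vmn1r89 differed from this, with medians of 3.13, 2.60 and 2.33 beside 2.68, 2.86 and 2.72 in their 18 neighbours. Over all clusters, the 436 coding genes within 1 Mb outside the arrays had medians of 4.91, 4.41 and 4.28. The 89 other coding genes inside the arrays had 2.68, 2.34 and 2.33, the values of the members themselves. The promoters of these 89 genes also had low uniqueness, with a median of 39.3%.

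**Figure D2:**
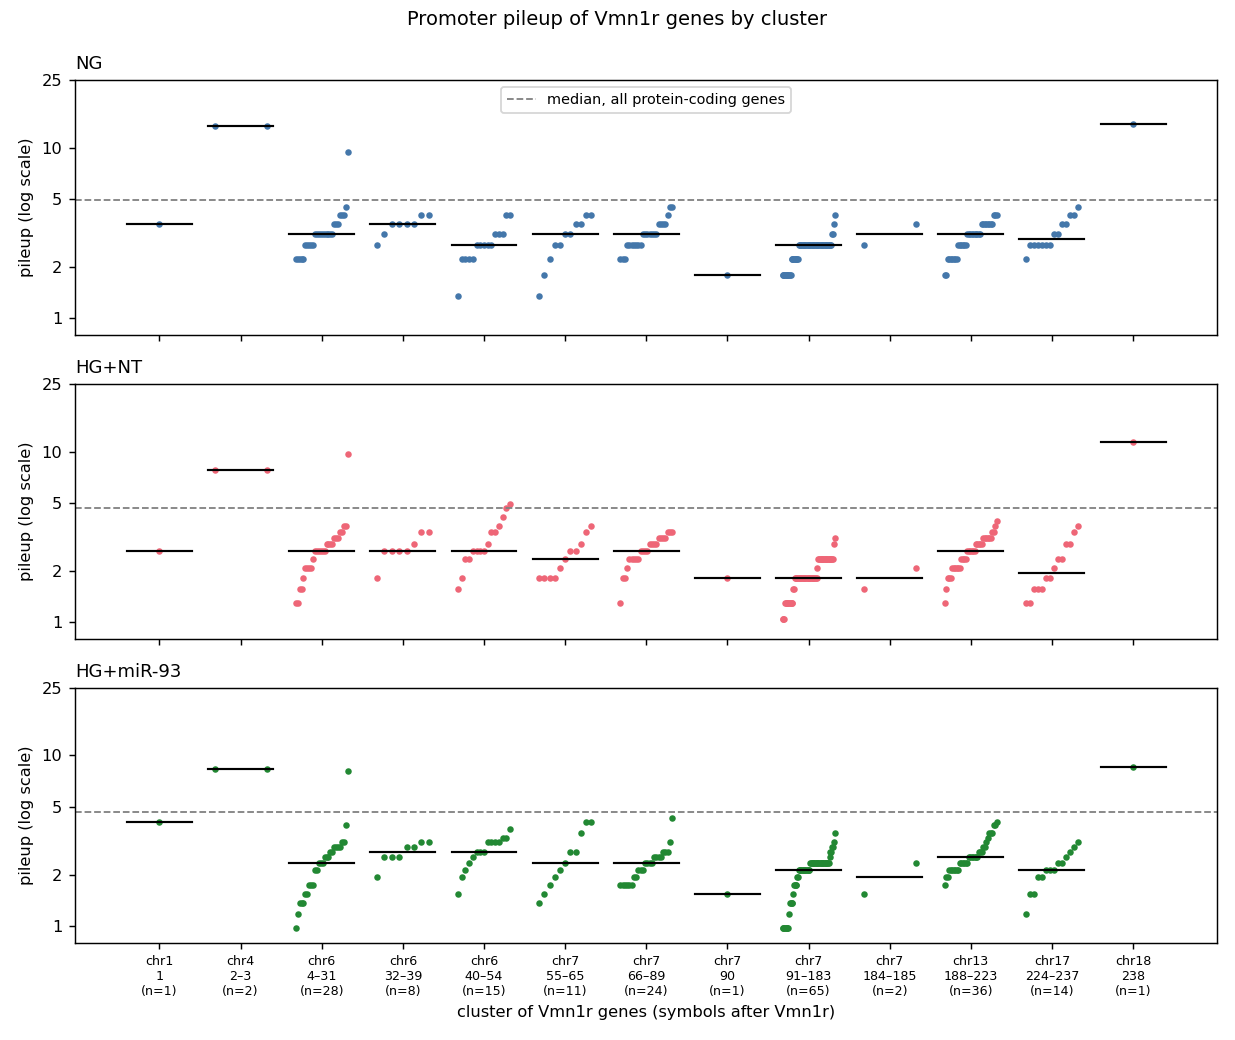
Promoter pileup (vertical axis, fragments at input depth, log scale) of each of the 208 Vmn1r genes in each list, by cluster along the genome, with members of a cluster in ascending order, black bars for cluster medians and a dashed line for the median of all protein-coding genes. Vmn1r238 on chromosome 18, Vmn1r2 and Vmn1r3 on chromosome 4 and Vmn1r4 on chromosome 6 lie above the dashed line in every list.

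Vmn1r238, a receptor gene alone near the start of chromosome 18 at chr18:3122492-3123412, had the highest pileup of all members. Its values were 13.8 (95% Poisson interval 9.41 to 19.7), 11.4 (8.30 to 15.3) and 8.55 (6.21 to 11.5). These intervals, like all Poisson intervals here, cover counting error only. They placed it at percentiles 96.7, 93.6 and 90.6 of all genes, and its −log10 q of 1.33 in NG was the 1 value above 0 among members. The signal was not at its start site. The summit lay 4460, 5340 and 5315 nt downstream of the start site in peaks 26765, 12114 and 12145 nt wide, about 118 to 119 kb from the first sequenced base of the chromosome. Of the 1 kb around the summit, 51.3%, 59.9% and 58.7% was repeat-masked, and the promoter had a uniqueness of 27.2%.

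Vmn1r2 and Vmn1r3, a pair on opposite strands near the start of chromosome 4, shared a single peak of 55350 nt in every list. It had a pileup of 13.4 (9.04 to 19.1), 7.79 (5.26 to 11.1) and 8.36 (6.05 to 11.3). The input's local mean there was 6 fragments in every list, against a genome background of 1.43, and the fold was 2.06, 1.26 and 1.34. The summit lay at -2136, -2131 and -2137 nt from the start of Vmn1r2, where negative is upstream, and 20174, 20169 and 20175 nt downstream of that of Vmn1r3. Of the 1 kb around it, 71.8% was repeat-masked, and it lay 115 kb from the first sequenced base. As at Vmn1r238, the summit lay outside the promoters of both genes, whose uniqueness was 16.8% and 20.8%. The spans of the clusters over 100 kb were 43.0% to 65.3% repeat-masked, a range that holds the values at the Vmn1r238 summits. The part of repeats in these high values was not tested.

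Vmn1r4 was the member with high signal on its own start site and in unique sequence. Its pileup was 9.38 (5.81 to 14.3), 9.61 (6.77 to 13.2) and 8.16 (5.88 to 11.0), with summits at -15, -254 and -57 nt from its first start site. That site, inside the CG-rich sequence shown above, lies 90 nt from a start site of Nt5c3, a pyrimidine nucleotidase gene transcribed the other way. The same peak was the strongest at this Nt5c3 start site in every list. At the other start sites of Vmn1r4 the pileup was that of the family, 2.68, 2.34 and 1.75 at the second and 2.68, 2.60 and 2.53 at the last. No other member had the start site of a coding gene that is not a member within 10000 nt. Leaving out 2 genes with older symbols of the same receptor family, V1ra8 and V1rd19, the median distance was 118774 nt. The pileup at Vmn1r4 therefore cannot be assigned to the receptor gene apart from its neighbour. Apart from these 4 genes, the highest pileups were 4.47, 4.93 and 4.28, and Vmn1r83, next in mean pileup, had 4.47, 3.38 and 4.28.

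At the low end, Vmn1r113, Vmn1r114 and Vmn1r115 had pileups of 1.79 (0.487 to 4.57), 1.30 (0.422 to 3.03) and 0.972 (0.316 to 2.27), which are 4, 5 and 5 fragments. These 3 genes do not have separate measurements. They share, with 3 more members, 1 peak of 177215 nt in each list. In NG, 24 members shared a peak at chr7:21101520-22796972, which is 1695 kb wide and rests on 6 fragments at its summit, and 11 more shared a peak of 718 kb. The 208 members had 161, 162 and 162 distinct strongest peaks, and the 65-gene array had 22 in each list. A strongest peak over 100 kb wide was found for 49 members (23.6%) in each list and for 3.42%, 3.47% and 3.45% of all genes.

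Peak width followed the uniqueness of the sequence. The 40 members under 10% uniqueness had median peak widths of 1207, 1207 and 1214 kb with a summit 374776, 333996 and 369334 nt from the start site. Many of these 40 share a peak, so their medians repeat a few measurements. In NG the median width lies between the widest shared peaks, of 1695 and 718 kb, and is the width of no single peak. The 63 members with at least 90% uniqueness had widths of 3.65, 4.73 and 3.65 kb and summits 1306, 973 and 841 nt away. Their pileups differed far less, with medians of 2.68, 1.82 and 2.33 under 10% uniqueness and 3.13, 2.60 and 2.33 at 90% and over. How reads with several matches were placed was not given in the sources used here, so a low value in repeated sequence and a lack of placeable reads cannot be told apart.

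**Figure D3:**
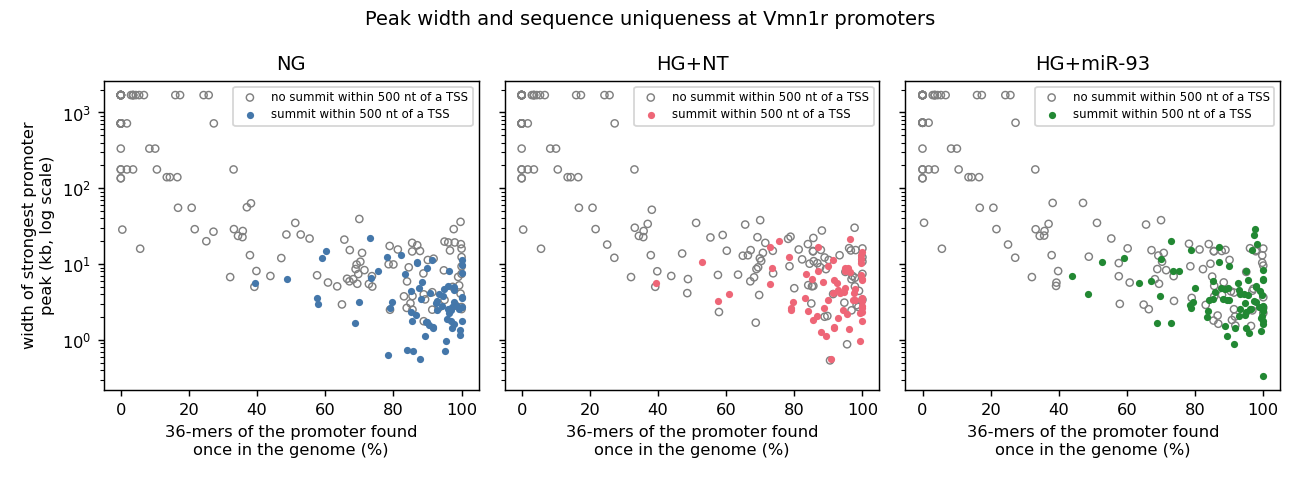
Width of the strongest promoter peak (vertical axis, kb, log scale) against the share of 36-mers of the promoter found once in the genome (horizontal axis, percent) for the 208 Vmn1r genes in each list, filled where some peak summit lay within 500 nt of a start site. The widest peaks, up to 1695 kb, lie at the left, where no member under 10% uniqueness has a summit in its promoter.

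A summit close to the start site is stricter than an overlap, but it is no sign of open chromatin by itself. Summits were dense, with 380, 310 and 330 per Mb over the genome. A window of 500 nt either side of a site can therefore hold one wherever it lies. A summit within 500 nt of a start site was found for 71 members (34.1%, 95% Wilson interval 28.0 to 40.8%), 65 (31.2%, 25.3 to 37.8%) and 76 (36.5%, 30.3 to 43.3%). Over all protein-coding genes the shares were 74.7%, 70.9% and 70.9%. A summit was present in all 3 lists for 33 members (15.9%, against 56.2% of all genes) and in no list for 103 (49.5%, against 13.7%). Vmn2r genes had lower shares still, 15.8%, 17.5% and 20.0%, and Olfr genes higher ones, 48.7%, 51.3% and 55.2%. The number of start sites searched differed too. A single one was annotated for 80 of 208 Vmn1r, 100 of 120 Vmn2r and 163 of 1134 Olfr genes. Chromosome 13 members reached 58.3%, 66.7% and 61.1%, whereas 4, 4 and 6 of the 65 genes of the chromosome 7 array had a summit in their promoter.

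Among members in unique sequence, the share was near that of other genes of the lowest GC class. Of the 63 members with at least 90% uniqueness, 38 (60.3%), 39 (61.9%) and 41 (65.1%) had a summit in the promoter. Of 2473 other genes of the lowest GC class with the same uniqueness, 60.2%, 59.3% and 62.1% did. Median pileups stayed somewhat lower in the members, 3.13, 2.60 and 2.33 against 3.57, 2.86 and 2.72. These reference genes included Olfr and Vmn2r genes, and the 1781 left without them had 3.57, 3.12 and 3.11, with summits in 63.2%, 60.1% and 62.7%. A single start site was annotated for 10 of the 63 members, 977 of the 2473 others and 863 of the 1781. Members were thus less often searched in a single window, so the shares and the values by fold are not like for like. By fold, the members stood at percentiles 37.7, 30.9 and 21.3 of all genes and the others at 37.7, 28.6 and 27.2, or 37.7, 30.9 and 32.3 without Olfr and Vmn2r genes. Ranked by fold within the lowest GC class alone, the median of all 208 members was at percentile 40.9, 38.0 and 44.5. Median pileup rose with GC over all genes, in NG from 3.13 in the lowest to 8.04 in the highest class, so composition moved with the low rank of the family, and its part was not tested.

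**Figure D4:**
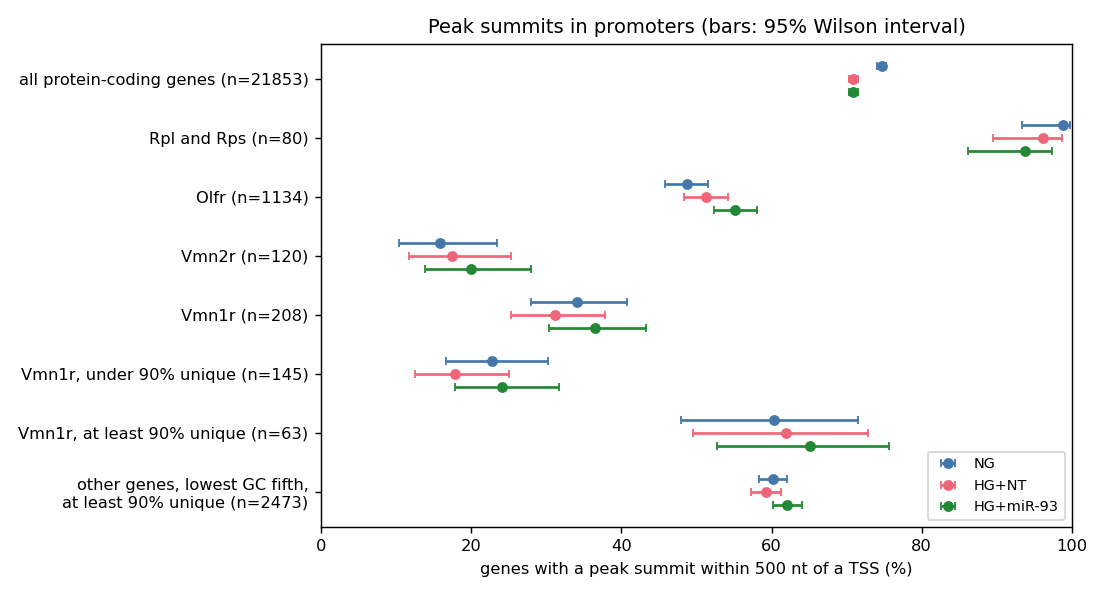
Share of genes with a peak summit within 500 nt of a start site (horizontal axis, percent) in each of the 3 lists, with 95% Wilson intervals, by gene group. All Vmn1r genes lie between 31.2% and 36.5%, and those with at least 90% uniqueness lie beside other genes of the lowest GC class at 60.3% to 65.1%.

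The annotation of the start site moved with the same result. For 55 members no transcript sequence before the start codon is annotated, so that the listed start site is the start codon, and 50 of these lie in the 65-gene array. Of these 55, 0, 1 and 1 had a summit in the promoter, against 71, 64 and 75 of the 153 members with an annotated leader. All 55 had a single annotated start site, as did 25 of the 153, so fewer windows were searched in the 55. Array, uniqueness, annotation and number of start sites cannot be told apart here.

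Few members had a strong promoter peak. Among the 50000 peaks of each list with the highest −log10 p, 1 overlapped the promoter of 19 (9.13%), 5 (2.40%) and 5 (2.40%) members, against 38.0%, 44.6% and 41.1% of all genes. Across the lists these were 24 genes, and Vmn1r238 was the 1 gene with such a peak in all 3. A summit of these peaks fell in a member's promoter for 1, 1 and 0 genes (0.481%, 0.481% and 0%), against 30.0%, 32.6% and 28.0% of all genes. Of other genes of the lowest GC class with at least 90% uniqueness, 8.09%, 7.0% and 5.78% had one. Besides the genes above, those named by −log10 p, with ties in order of symbol, were Vmn1r14, Vmn1r20, Vmn1r175 and Vmn1r200 in NG and Vmn1r1 in HG+miR-93. Peaks equal in p and fold were ordered by chromosome and position, so the cut at 50000 could divide ties. In NG, Vmn1r9 and Vmn1r24 tied with Vmn1r20 at 9 fragments, a fold of 2.07 and a −log10 p of 1.81. Vmn1r14 had pileups of 4.47, 2.60 and 2.33. Vmn1r200 had 4.02, 3.64 and 3.89. Vmn1r1, alone on chromosome 1, had 3.57, 2.60 and 4.08, and its strongest summit lay at -208, -199 and 2640 nt from its start site. Vmn1r20 had 4.02, 3.64 and 1.75, and Vmn1r175 had 4.02, 2.34 and 3.11. All intervals of Vmn1r1, Vmn1r14, Vmn1r20, Vmn1r175 and Vmn1r200 overlapped between the lists.

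Between conditions, members were compared by the ratio of pileups, divided by the median ratio over all promoters (0.904 for HG+NT over NG, 0.952 for HG+miR-93 over HG+NT and 0.870 for HG+miR-93 over NG). From NG to HG+NT, 8 members (3.85%) were past 1.5 upwards, where 11.8% of all genes were, and 31 (14.9%) were past it downwards, where 13.4% of all genes were. From HG+NT to HG+miR-93, 15 members (7.21%) were past 1.5 upwards against 6.26% of all genes, and 16 (7.69%) downwards against 6.85%. From NG to HG+miR-93, 10 members (4.81%) were past it upwards against 12.6%, and 32 (15.4%) downwards against 14.0%. The 3 comparisons share lists and are not independent. Shares of members past 1.5 thus lay near the background except upwards from NG, where they were lower. Upwards from NG to HG+NT the share was low in Vmn2r (1.67%) and Olfr (5.56%) genes as well.

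The median ratio of the members in these 3 comparisons was 0.884, 1.05 and 0.929. Other genes of the lowest GC class with at least 90% uniqueness had 0.929, 1.01 and 0.929, and 9.39% of them were past 1.5 upwards and 18.8% downwards from NG to HG+NT. The 95% Poisson intervals, after the same scaling, overlapped for all 208 members in all 3 comparisons, while they did not overlap for 2.49%, 2.21% and 2.67% of all genes. At 6 to 12 fragments a change of 1.5 times is within counting error, so such a change was not detectable at this depth at a typical member.

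The members with the most extreme ratios show how few fragments they rest on. The largest rises from NG to HG+NT were at Vmn1r60, from 3 to 9 fragments (ratio 1.93), Vmn1r40, from 7 to 19 (1.74), and Vmn1r42, from 6 to 16 (1.71). The largest falls were at Vmn1r24, from 9 to 5 fragments in the deeper list (0.357), and at Vmn1r178 and Vmn1r224, each from 8 to 5 (0.402). In pileup, Vmn1r24 went from 4.02 (1.84 to 7.63) to 1.30 (0.422 to 3.03). From HG+NT to HG+miR-93 the largest rises were at Vmn1r58 (2.36), Vmn1r203 (2.02) and Vmn1r202 (1.91). Vmn1r203 had pileups of 1.79, 1.82 and 3.50, with a summit in its promoter in every list. The largest falls were at Vmn1r171 (0.327), Vmn1r19 (0.357) and Vmn1r233 (0.363). Vmn1r233 went from 3.38 (1.80 to 5.77) to 1.17 (0.428 to 2.54), and its NG value of 2.23 lay between them.

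The compared summits were rarely the same place. Summits of the strongest peak lay within 150 bp of each other in all 3 lists for 7 members (3.37%) and for 12.5% of all genes. Vmn1r2 and Vmn1r3, which share their peak, were 2 of the 7. Vmn1r201 had its summits -16, -126 and -65 nt from the start site, with pileups of 3.57 (1.54 to 7.04), 2.60 (1.25 to 4.78) and 2.72 (1.49 to 4.56), so the position recurred at a level that the counting error does not separate between lists.

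**Figure D5:**
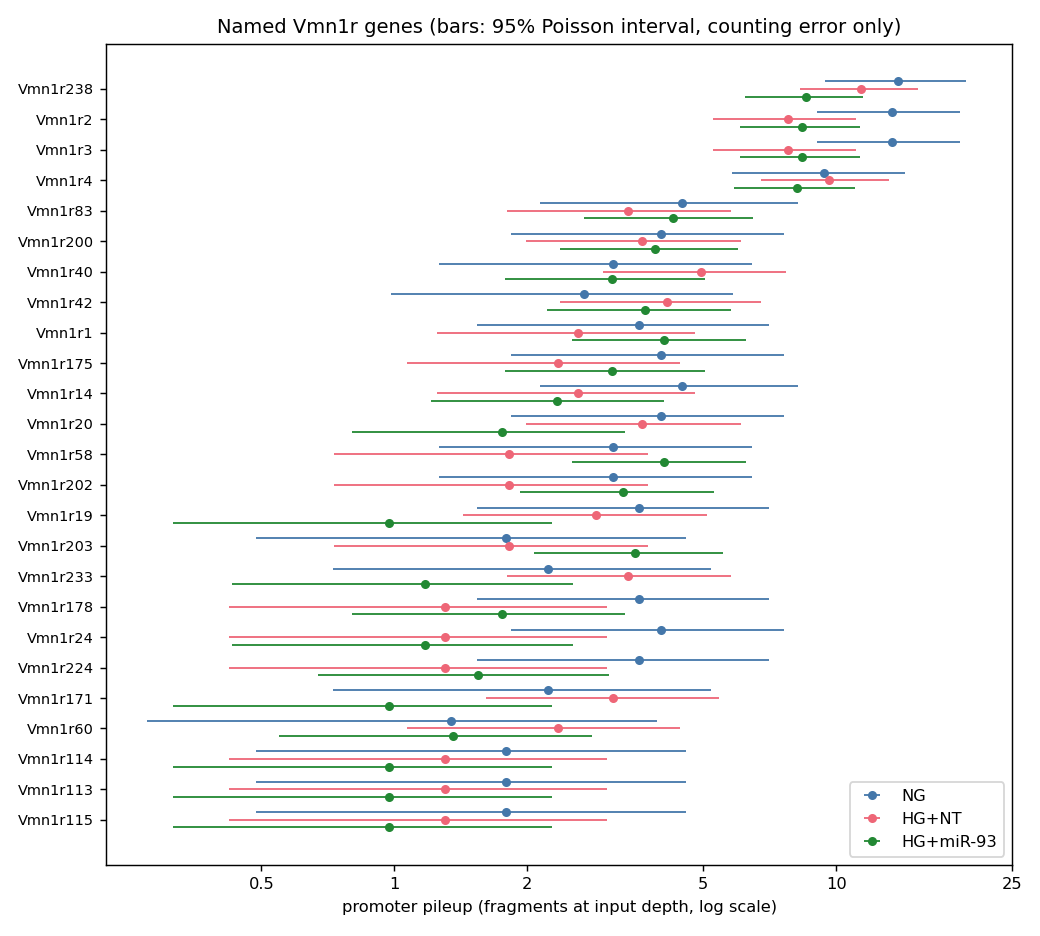
Promoter pileup (horizontal axis, fragments at input depth, log scale) of the 25 Vmn1r genes named by rule, ordered by their mean, in each of the 3 lists, with 95% Poisson intervals for counting error. Vmn1r238, Vmn1r2, Vmn1r3 and Vmn1r4 lie at the top, and the 3 intervals of a gene overlap throughout.

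Peak summits were sparse across the arrays. The 13 cluster spans, 12.6 Mb in all, held 167, 155 and 168 summits per Mb, against 380, 310 and 330 over the genome. The 65-gene array, in which 13.9% of 36-mers occurred once in the genome, held 39.6, 34.8 and 39.1 per Mb, where the rest of chromosome 7 held 391, 321 and 333. Its span was nevertheless 99.5% covered by peaks in every list. The other 8 clusters over 100 kb held 159 to 294, 150 to 237 and 166 to 271 summits per Mb. Their uniqueness ranged from 55.2% to 72.9%. Among the 50000 strongest peaks, the spans held 7.52, 3.40 and 3.01 summits per Mb against 18.3 over the genome.

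Genes that act with the receptors or mark their neurons lay, as a list, near the level of all genes, with median pileups of 4.91, 4.93 and 5.05. Of 18 such genes, 16, 18 and 18 had a pileup above the Vmn1r median, as did 87.2%, 90.2% and 89.7% of all genes, and 6, 10 and 11 were above the median of all genes. Trpc2, the transduction channel of vomeronasal neurons, had 4.47, 4.15 and 4.47, and Gnai2, the G protein subunit that type 1 receptors use, had 5.81, 7.79 and 7.19. Gng8, a G protein subunit of these neurons, had 6.25, 4.93 and 6.02, and Omp, the olfactory marker protein gene, had 4.02, 4.41 and 4.66. The highest of the list in NG were Gnb1 and Ldb1, both at 9.83. Its highest value in HG+NT was at Cnga4, which had 4.91, 19.5 (15.3 to 24.4) and 5.05. The Cnga4 summits lay at 4841, -4292 and 3392 nt from a start site. Some of the list lay lower. Rtp1 and Rtp2, which encode receptor transport proteins, were both at the Vmn1r median of 2.68 in NG, with 5.19 and 3.38 in HG+NT and 3.30 and 4.28 in HG+miR-93, and Calr4, a calreticulin gene, had 3.13, 2.86 and 2.53. The promoters of the 18 genes had 45.0% to 65.4% GC, above the range of the members, and at least 87.9% uniqueness. All 12 podocyte marker genes examined lay above the Vmn1r median in every list, beside the same shares of all genes, and 6, 7 and 7 were above the median of all genes. Actn4, an actin crosslinker of podocyte foot processes, had 10.7, 11.4 and 9.13. RNA was not analysed here, so the silence of the family itself was not measured.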

How the data were processed

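DNase-Seq of cultured mouse podocytes was re-analysed from 3 lists of peaks. Before deposit, the authors used TrimGalore! for trimming and Bowtie for alignment (mm10), removed duplicate reads and ran MACS2 with the input as control. Per the labels, base calling used CASAVA 1.8.2. The study's methods call the MACS2 settings those recommended for DNase-Seq without listing them, and the handling of reads with several matches was not given in the sources used here. The replicates of a condition were pooled by the authors in each list.

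The deposited fold is a ratio, scaled summit fragments plus 1 over the local input mean plus 1. The deposited −log10 p-value and −log10 q-value come from MACS2's Poisson model of these quantities. The deposited score is 10 times the −log10 p, cut to a whole number, and was not used further. Fragments and local means were solved from fold and p for all but a few peaks, in steps of 0.02 fragments for the local mean, and the solving was tested on simulated data. Pileup intervals are exact Poisson (95%), and shares have Wilson intervals. The Wilson intervals treat genes as separate, although 57, 55 and 55 members shared their strongest peak with another member.

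Promoters were 500 nt either side of 54361 start sites of 21853 genes. The members and gene lists were chosen with earlier results of these data known. Named were the 5 members of highest and 3 of lowest mean pileup, up to 8 with a promoter peak among the 50000 strongest, and the 3 largest rises and falls in the steps NG to HG+NT and HG+NT to HG+miR-93. Vmn1r216 stands for 2 overlapping gene entries, both counted. The symbol Vmn1r239-ps, not on chromosomes 1 to 19, was left out. Python 3.11.15 with numpy 2.4.6 and scipy 1.17.1 was used. No test between conditions was made.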

Additional observations from a re-analysis of the deposited data

How the results depend on the processing

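No paired analysis was possible because each condition is 1 pooled list, and for the same reason values without a replicate were not run. Of 87 alternative values, 27 stayed within the main value's 95% interval (order statistics for a median, Wilson for a share, Poisson for summits per Mb, or 1.5 times for a count of members) and 60 moved. Because of ties, the interval of the median percentile by fold in NG ran from 23.6 to 23.6, so any shift there counts as moved. Every median percentile by fold, -log10 p or pileup stayed below 50.

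The median percentile by fold was 20.0 in NG with promoters of 1000 nt either side. Ranked by −log10 p it was 16.7, 24.1 and 29.3. Ranked by pileup it was 9.42, 8.31 and 9.0. With summits required in the promoter it was 17.8 in NG, and within the own chromosome 25.3 in NG and 23.7 in HG+miR-93. Members with at least 90% uniqueness gave 37.7 in NG and 30.9 in HG+NT, and genes of the same GC class as reference gave 40.9, 38.0 and 44.5. With only the most 5′ start site, an alternative chosen after seeing the data, it was 29.0 in NG, and the median pileup was 2.14 in HG+miR-93. Median pileup at 90% uniqueness and over was 3.13 in NG and 2.60 in HG+NT.

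The share of members with a summit was 47.6%, 44.2% and 51.9% with 1000 nt, and 60.3%, 61.9% and 65.1% at 90% uniqueness and over. It was 0.481%, 0.481% and 0% for the 50000 strongest peaks and 0% in every list for the 20000 strongest, where all genes had 30.0%, 32.6% and 28.0%, and 28.2%, 19.5% and 14.7%.

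Counts of members past the change threshold depended on it. Past a ratio of 2 they were 0 higher and 7 lower for NG to HG+NT, then 2 and 3 for HG+NT to HG+miR-93, then 2 and 4 for NG to HG+miR-93. As shares of members these were 0% and 3.37%, 0.962% and 1.44%, and 0.962% and 1.92%, against 3.47% and 4.67%, 1.58% and 2.50%, and 3.49% and 4.74% of all genes. With intervals that do not overlap they were 0 in all 6 cases. With the ratio of folds, the lower counts were 18, 5 and 14. With 1000 nt, 5 were higher from NG to HG+NT. Restricted, after seeing the data, to the 7 members with summits within 150 bp, they were 1 and 2, 1 and 0, and 2 and 0. The median change of percentile by fold was -6.55, -1.06 and -4.59. By pileup the second of these was 0.131, with the sign turned, and the last -1.87.

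Summits per Mb over clusters joined at 250 kb were 154, 144 and 157, and 7.52, 3.40 and 3.01 among the 50000 strongest peaks. Depth limits all values, with a median of 6 to 12 fragments at a member. The causes of these differences were not tested.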
